A study of Apis mellifera with 15 samples.

Results

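The 300 most abundant noncoding genes with a LOC identifier were described in the brain of forager honey bees (Apis mellifera) after 72 h of feeding on thiacloprid. This insecticide is a neonicotinoid, a class of compounds that bind nicotinic acetylcholine receptors, the main excitatory receptors of the insect brain. A gene was taken as noncoding where every one of its transcripts carried a RefSeq noncoding accession. Of 12112 genes in the deposited table, 1905 with a LOC name met this condition. With 2 loci, LOC406142 and LOC406144, left out by name, 702 of these had a mean count of at least 10 over the 15 libraries. The 300 of them with the highest mean counts are the members described here. The reference annotation calls 293 of them lncRNA, 5 misc_RNA, 1 snRNA and 1 snoRNA. The members were chosen by their mean count, so their abundance is a description and not a test. The last members inside the limit, LOC113218999, LOC107964045 and LOC107965291, had mean counts of 40.4, 40.0 and 39.9, and LOC107964214, LOC107964976 and LOC107965826, just outside it, had 39.7 each.

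Long noncoding RNAs are transcripts that are usually spliced and polyadenylated like messenger RNA but carry no long open reading frame. Some act on the chromatin or the transcription of nearby genes, some act in the cytoplasm or the nucleoplasm, and for most no role is known. In the honey bee brain, noncoding transcripts such as Ks-1, AncR-1 and kakusei are known as neuronal or nuclear RNAs, and kakusei is known as an activity-dependent one. The 300 members carry locus identifiers only, and no role is assigned to them in the files used here.

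Brain RNA was sequenced in 15 libraries, 5 each from adult worker bees fed sucrose solution with solvent alone, with 25 ng/bee thiacloprid, or with 250 ng/bee thiacloprid. Bees of all 3 groups came from an unpolluted site and were kept in bottles, and each library is a separate pool of 5 brains, so a value is a mean over animals and the response of a single bee cannot be seen. Fewer cells of a type and less RNA per cell cannot be told apart in such pools. The libraries were made from polyadenylated RNA, so noncoding RNAs without a poly-A tail are captured poorly.

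The libraries held 6834898 to 11500655 counts, except replicate 1 at 250 ng/bee, which held 29208991 and is the library whose label starts with 20191023 in place of 20190809. Within each library, members took 1.01% to 1.82% of all counts, the lowest share being in that replicate. A list of hypopharyngeal gland genes took 4.41% to 22.6% of the counts. With the gland genes left out of the total, members took 1.30% to 1.97%. Of the 14 names of the neuronal list 6 were matched, and none of these genes was at 0. They summed to 1103 to 1382 CPM in the control (counts scaled to a common library size, with TMM factors between libraries), to 955 to 1284 CPM at 25 ng/bee and to 876 to 1059 CPM at 250 ng/bee. In this sum each library at 250 ng/bee lay below each control. Over all tested genes, 1.78% were lower at 250 ng/bee without overlap of the groups. The sum was led by Syx1A, Syt1 and Para, with means of 432, 286 and 270 CPM, and the single genes are not given by group here. No name of the glial list was matched. In replicate 1 at 250 ng/bee, 59 members (19.7%) had their highest value and 41 (13.7%) their lowest, against 16.9% and 23.2% of genes with coding transcripts. Results at 250 ng/bee are therefore given with and without this library.

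The members covered a wide range of levels, with 1 gene far above the rest. LOC102653599 alone held 46.0% of the mean counts of all members, the 10 most abundant held 63.1% and the 50 most abundant 80.7%. By mean CPM, 12 members were above 100, 130 lay from 10 to 100 and 158 were below 10. LOC102653599 (chromosome 2, 11829037 to 11837833, minus strand, leading transcript 7395 bases) had 7629, 5522, 6542, 5984 and 8039 CPM in the control. It had 6327, 6807, 5926, 5768 and 6794 CPM at 25 ng/bee and 5110, 6692, 4720, 6955 and 7198 CPM at 250 ng/bee. The groups overlapped, with 2 of the 5 libraries at 250 ng/bee below the lowest control, and the log2 fold change was -0.09 ± 0.18 (SE) at 25 ng/bee and -0.14 ± 0.18 at 250 ng/bee. For comparison, Ancr-1, the bee noncoding RNA named above, which has a symbol and is therefore no member, had a mean of 4513 CPM. Ks-1 and Kakusei reached no more than 9 and 4 counts in any library and were not tested.

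Below it came LOC107964104 with a mean of 658 CPM, a short transcript of 470 bases. LOC107966103 had 287 CPM, LOC100577216 had 250, LOC107965036 had 225 and LOC113218632 had 214. LOC724670, annotated as misc_RNA, had 195 CPM, LOC102656130 had 189, LOC113218601 had 170 and LOC102656765 had 160. In each of these 10 members the range of the 5 libraries of one group overlapped that of the other groups. Per length the order changed: in FPKM, which divides a level by transcript length and library depth, LOC107964104 led with 1297, ahead of LOC102653599 with 822. LOC724490 followed with 198 FPKM, LOC107964283 with 183, LOC102656130 with 176 and LOC113218717 with 173, and all 4 have leading transcripts of 999 bases or fewer.

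**Figure D1:**
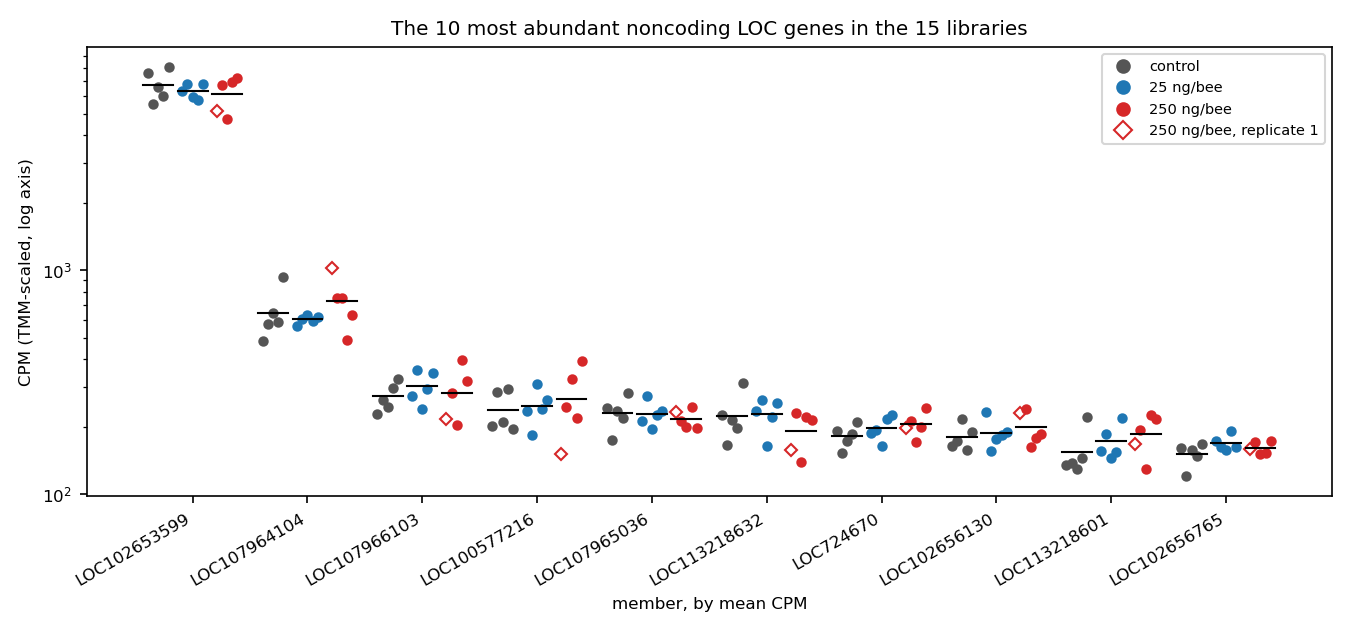
CPM (log axis) of the 10 members with the highest mean, 1 point per library, by group; black lines are group means and the open diamond is replicate 1 at 250 ng/bee. LOC102653599 stands far above the other 9 members, whose groups overlap.

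Members were shorter in structure and lower in level than genes with coding transcripts. Their median transcript length, weighted by isoform level, was 1844 bases with a median of 3 exons, and 156 members (52.0%) had 1 annotated transcript. Genes with coding transcripts had medians of 2142 bases and 6 exons. The median level was 9.49 CPM and 5.97 FPKM in members against 39.8 CPM and 16.9 FPKM in coding genes. The median biological coefficient of variation, the fitted spread between libraries of a group beyond counting error, was 0.237 in members and 0.169 in coding genes. It was 0.259 in the 735 coding genes with mean counts from the lowest to the median member, and 0.359 in the 401 tested noncoding LOC genes below the limit. Those 735 coding genes had a median mean count of 70.1 against 104 in members, so the levels are not matched. The ratio of the highest to the lowest library had a median of 2.54 over members, was under 2 in 71 of them, and was 5 or more, or undefined because of a 0, in 35. The steadiest member, picked after its values were seen, was LOC102654700, with a coefficient of variation of 0.110, a mean of 32.3 CPM and a highest-to-lowest ratio of 1.30.

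Most members lay on the opposite strand of a coding gene. An antisense overlap was found for 159 members (53.0%), of which 104 had their whole span inside the coding gene's span and 9 overlapped by 300 bases or fewer. They overlapped 145 coding genes, and 11 of these coding genes held 2 or more members. A further 19 members overlapped a coding gene on the same strand, 34 lay divergent from the nearest coding gene, 34 downstream and 26 upstream of it on the same strand, and 23 convergent with it. The remaining 5 lay on unplaced sequences with no coding gene. Of the 34 divergent members, 19 lay within 1000 bases of the neighbour. A member with overlaps on both strands was counted as antisense. The kit marks strand, but no source used here states whether the counting used it, so reads of a member and of the gene on its other strand cannot be told apart with certainty. For the 19 members with a same-strand overlap, strand cannot separate reads of the member from those of the coding gene. Reads shared in this way were not tested.

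Among 157 antisense members with a tested partner, the member had the higher mean CPM in 36, with median levels of 8.77 CPM for the members and 40.6 CPM for the partners. LOC102653599 was the extreme case: its partner LOC410857, on the plus strand over 8114 shared bases, had a mean of 10.7 CPM. The fold change of member and partner at 250 ng/bee had the same sign in 75 of the 157 pairs, and at 25 ng/bee in 80. LOC724670 overlaps LOC724715 by 272 bases. The member had 182 ± 21.5 CPM in the control and 205 ± 26.3 at 250 ng/bee (SD, n = 5). Its log2 fold change was 0.17 ± 0.12. The partner had 42.8 ± 4.51 and 61.2 ± 12.2 CPM in these groups, a log2 fold change of 0.51 ± 0.13 with an edgeR adjusted p of 0.277. Without replicate 1 at 250 ng/bee the partner passed, with 0.60 and an edgeR adjusted p of 0.0329.

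Some members lay near each other: 52 (17.3%) were within 10000 bases of another, in 23 groups. The same share was not taken for other genes, so it is no trait particular to members. The largest group, of 4 members on the minus strand of chromosome 2, ran from LOC113218600 (start 9943549) through LOC107966103 and LOC113218601 to LOC107966102 (end 9971106), around and against LOC408699. Their mean levels were 20.6, 287, 170 and 90.8 CPM in that order, while LOC408699 had 14.4 CPM. The log2 fold changes at 250 ng/bee were 0.25, 0.06, 0.28 and -0.31, so the 4 neighbours did not share a direction. LOC102656814, LOC102656788 and LOC100578082 lie in 1 stretch of chromosome 1 against LOC410741. Their log2 fold changes at 250 ng/bee were -0.64 ± 0.27, -0.55 ± 0.29 and -0.38 ± 0.19, none of them past the threshold (edgeR adjusted p of 0.39, 0.463 and 0.424), with 0.09 ± 0.13 for LOC410741.

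The first comparison asked about members in bees given the lower dose. With 25 ng/bee, 0 of 300 members passed an adjusted p of 0.05 in edgeR's quasi-likelihood F test (two-sided, Benjamini-Hochberg over 9560 genes), and the background over all tested genes was 0.0%. DESeq2 and limma-voom also passed 0 members. At an unadjusted p under 0.05, 8 members were on the higher side (2.67%, background 1.06%) and 5 on the lower side (1.67%, background 1.4%) in edgeR. Together these are 4.33% of members, against 2.46% of all tested genes. The median log2 fold change was 0.02 over members and -0.01 over all tested genes, and 160 members (53.3%) had a value above 0, against 47.8% of all tested genes. No member was lower without overlap of the groups (background 0.22%).

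The member with the smallest p at the lower dose was LOC100578585, which overlaps LOC413159 on the same strand. It had 4.73, 3.86, 3.28, 3.88 and 5.08 CPM in the control and 6.32, 5.20, 8.46, 7.47 and 7.12 CPM at 25 ng/bee, so the groups did not overlap. The log2 fold change was 0.72 ± 0.22 (edgeR adjusted p = 0.998). LOC113218654, which lies convergent with LOC552280, was the other member whose groups did not overlap, with 20.0 to 23.7 CPM in the control and 25.6 to 28.1 CPM at 25 ng/bee and a log2 fold change of 0.28 ± 0.12. These 2 members are 0.667% of the 300, against a background of 0.701% of tested genes that did not overlap in the higher direction. The other members named on the higher side were LOC102654581, LOC102654792 and LOC102655699, with 0.89 ± 0.37, 0.51 ± 0.21 and 0.38 ± 0.13. On the lower side were LOC113218862 with -0.54 ± 0.24, LOC113218581 with -0.44 ± 0.18, LOC102654812 with -0.41 ± 0.18, LOC113218721 with -0.41 ± 0.20 and LOC100576841 with -0.34 ± 0.16. The value of LOC102654581 came largely from replicate 3 with 42.4 CPM, where the other 4 libraries had 11.1 to 17.6, and its lowest value with 1 library left out was 0.43.

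The next comparison set the higher dose against the control. With 250 ng/bee, 0 of 300 members passed in edgeR with all libraries, again beside a background of 0.0%. At an unadjusted p under 0.05, 18 members were on the higher side (6.0%, background 4.49%) and 8 on the lower side (2.67%, background 7.48%). Together these are 8.67% of members against 12.0% of all tested genes. The median log2 fold change was 0.07 over members, -0.04 over coding genes and -0.03 over all tested genes. A value above 0 was found in 180 members (60.0%), against 44.4% of all tested genes, and in 179 members without replicate 1. The summed neuronal markers were lower at this dose, at 876 to 1059 CPM against 1103 to 1382 CPM in the control, and their part in the values of the members was not tested. DESeq2 passed 2 members (0.667%, background 0.565%), limma-voom with sample weights passed 4 (1.33%, background 4.08%), and edgeR without replicate 1 at 250 ng/bee passed 3 (1.0%, background 2.58%). The members passed were all on the higher side; for edgeR without that library the background on that side was 2.2%.

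**Figure D2:**
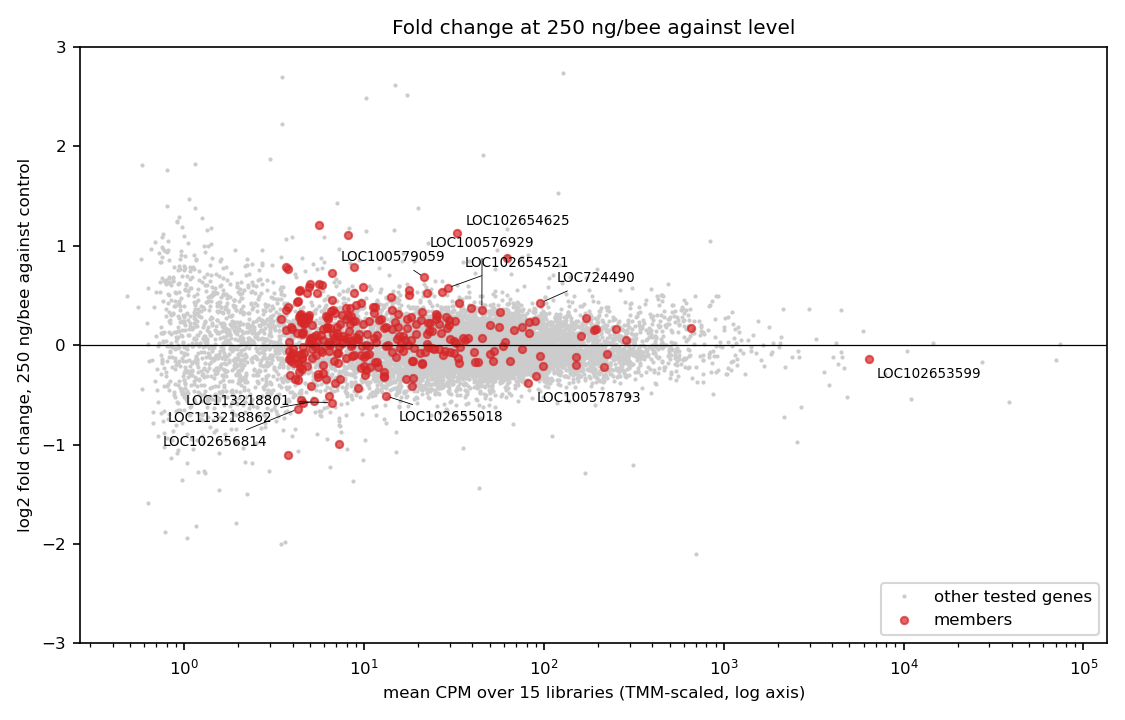
Log2 fold change of 250 ng/bee against the control (y axis) by mean CPM (log x axis) for the 300 members in red and the other tested genes in grey, with 4 genes that are no members outside the plotted range. Members lie at and above 3 CPM on both sides of 0, and LOC102654625 stands at 1.12 with a mean of 33.0 CPM.

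LOC100579059 (chromosome 1, 6307742 to 6317283, minus strand) had the smallest p at the higher dose. Its levels were 16.0, 17.1, 17.7, 14.6 and 21.4 CPM in the control, 14.4, 21.5, 22.7, 17.7 and 21.9 CPM at 25 ng/bee, and 28.0, 27.6, 29.4, 19.9 and 34.4 CPM at 250 ng/bee. Of the 5 libraries at the higher dose, 4 lay above every control and replicate 4 lay below the highest control. The log2 fold change was 0.68 ± 0.16 with an edgeR adjusted p of 0.277. It rose in DESeq2 (adjusted p = 0.02), in limma-voom (adjusted p = 0.0334) and in edgeR without replicate 1 at 250 ng/bee, where the log2 fold change was 0.70 ± 0.17 with an adjusted p of 0.0413. Over the other edgeR settings run, the adjusted p ranged from 0.0869 to 0.557. The whole member lies against LOC414021, which had 51.0 ± 7.77 CPM in the control and 40.2 ± 3.08 CPM at 250 ng/bee, a log2 fold change of -0.34 ± 0.12 that did not pass (edgeR adjusted p = 0.333).

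LOC102654625 and LOC102654521 are neighbours on the minus strand of chromosome 8, at 8485889 to 8499165 and 8502077 to 8522775, and both lie inside the span of LOC551663 on the other strand. LOC102654625 had 23.6, 20.9, 24.9, 21.8 and 17.5 CPM in the control, 21.2, 15.9, 45.4, 44.3 and 24.7 CPM at 25 ng/bee, and 87.4, 52.0, 30.7, 32.8 and 32.7 CPM at 250 ng/bee. All 5 libraries at the higher dose lay above all 5 controls, and the 87.4 CPM belonged to replicate 1. The log2 fold change was 1.12 ± 0.31 (edgeR adjusted p = 0.277) with all libraries and 0.80 ± 0.27 (edgeR adjusted p = 0.101) without that replicate. DESeq2 and limma-voom passed it with adjusted p of 0.0363 and 0.0473.

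LOC102654521 had 24.2, 19.0, 16.7, 28.9 and 27.6 CPM in the control and 29.8, 44.6, 34.5, 28.9 and 36.4 CPM at 250 ng/bee. The groups met at 28.9 CPM, and the log2 fold change was 0.58 ± 0.18 (edgeR adjusted p = 0.299). It passed in limma-voom alone, with an adjusted p of 0.0436. The coding gene around both, LOC551663, had 160 ± 37.0 CPM in the control and 155 ± 12.0 CPM at 250 ng/bee, a log2 fold change of -0.04 ± 0.15.

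**Figure D3:**
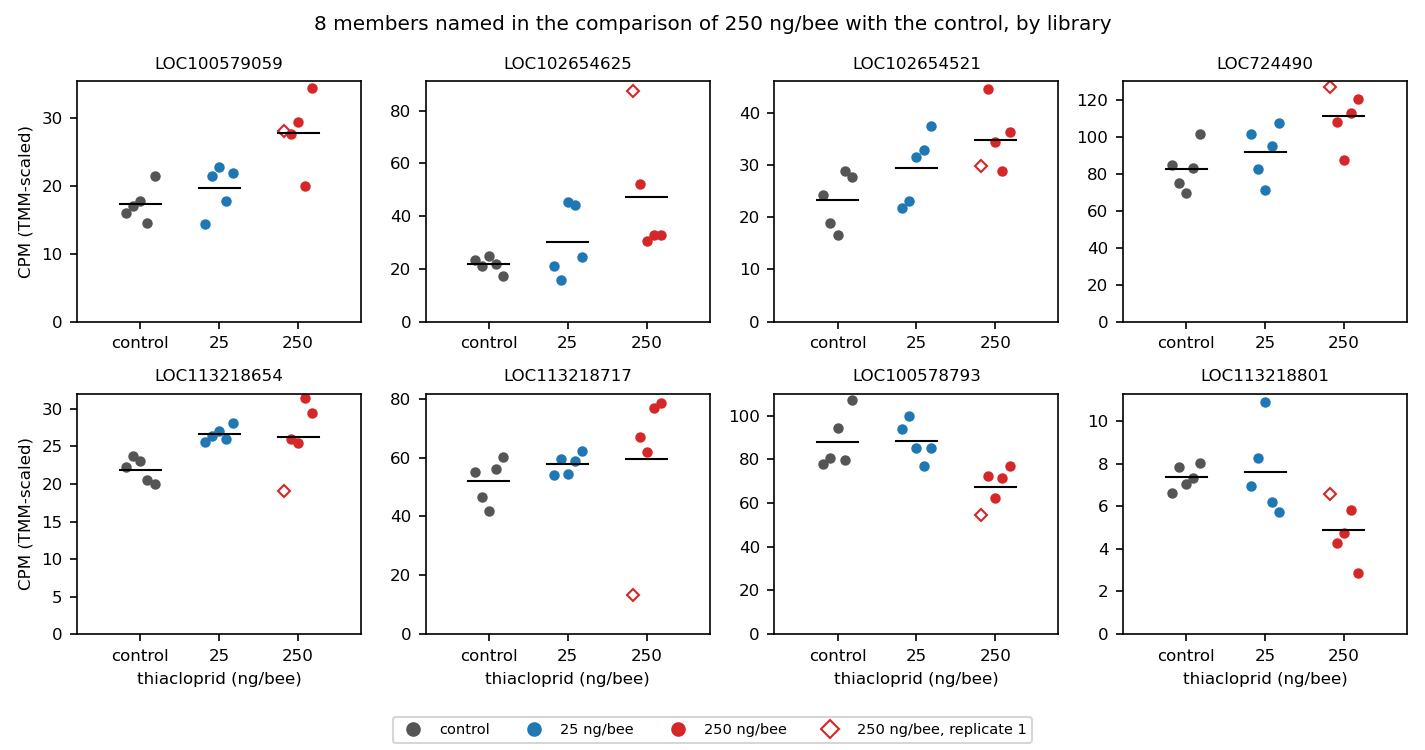
CPM by library for 8 members named at 250 ng/bee, with the group on the x axis, group means as black lines and replicate 1 at 250 ng/bee as an open diamond. That library is the highest for LOC102654625 at 87.4 CPM and the lowest for LOC113218717 at 13.2 CPM.

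LOC724490 and LOC100576929 are short transcripts that lie divergent from a coding gene, within 1000 bases of it. LOC724490 had 85.1, 75.3, 69.6, 83.1 and 102 CPM in the control and 127, 108, 87.7, 113 and 121 CPM at 250 ng/bee. The log2 fold change was 0.42 ± 0.13 (edgeR adjusted p = 0.295), limma-voom passed it with an adjusted p of 0.0475, and with a correction for transcript length the value was 0.18. LOC100576929 had 36.9 to 48.1 CPM in the control, 33.5 to 47.7 CPM at 25 ng/bee and 48.0 to 63.6 CPM at 250 ng/bee. Its log2 fold change was 0.36 ± 0.12 (edgeR adjusted p = 0.303). Without replicate 1 the values of LOC724490 and LOC100576929 were 0.40 and 0.30 (edgeR adjusted p of 0.111 and 0.123). With all libraries, LOC409928, the coding gene beside LOC724490, had 0.36 ± 0.18 (edgeR adjusted p = 0.445). LOC726086, beside LOC100576929, had 0.11 ± 0.14 (edgeR adjusted p = 0.793).

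LOC113218654 and LOC113218717 passed in edgeR only without replicate 1 at 250 ng/bee. At that dose LOC113218654 had 19.1, 26.0, 25.5, 31.4 and 29.4 CPM, against 20.0 to 23.7 CPM in the control, so replicate 1 was below and the others were above every control. Its log2 fold change was 0.26 ± 0.12 (edgeR adjusted p = 0.4) with that library and 0.38 ± 0.09 (edgeR adjusted p = 0.0405) without it. LOC113218717, a transcript of 314 bases, had 55.2, 46.5, 42.0, 56.0 and 60.3 CPM in the control and 13.2, 67.2, 61.9, 76.8 and 78.5 CPM at 250 ng/bee. Its log2 fold change was 0.19 ± 0.30 (edgeR adjusted p = 0.84) with replicate 1 and 0.47 ± 0.11 (edgeR adjusted p = 0.0413) without it, and with a correction for transcript length the sign turned, to -0.063.

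On the lower side, LOC100578793 overlaps LOC726021 on the same strand. It had 77.9, 80.7, 94.6, 79.8 and 107 CPM in the control and 54.6, 72.3, 62.2, 71.5 and 77.1 CPM at 250 ng/bee, without overlap of the groups. The log2 fold change was -0.38 ± 0.12 (edgeR adjusted p = 0.29), and -0.29 ± 0.11 (edgeR adjusted p = 0.142) without replicate 1, while LOC726021 had -0.22 ± 0.12. LOC113218801, inside LOC413021 on the same strand, had 6.60 to 8.02 CPM in the control and 2.88 to 6.60 CPM at 250 ng/bee, without overlap before rounding. Its log2 fold change was -0.58 ± 0.22, while LOC413021 had -0.29 ± 0.10 (edgeR adjusted p = 0.329). LOC113218862 had 5.73 to 8.35 CPM in the control and 2.62 to 5.40 CPM at 250 ng/bee, with -0.57 ± 0.24. Without replicate 1 these 2 members had -0.69 ± 0.23 and -0.62 ± 0.25 (edgeR adjusted p of 0.0959 and 0.172). LOC102655018, against LOC550930, had -0.51 ± 0.20 where its partner had 0.42 ± 0.17, and neither passed (edgeR adjusted p of 0.362 and 0.361). Of the 300 members, 3 were lower without overlap (1.0%, background 1.78%) and 1 was higher without overlap (0.333%, background 0.973%).

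Median fold changes at 250 ng/bee differed between classes of transcript length, in members and in coding genes; these medians are a description, with no test. The 74 members whose leading transcript was under 1000 bases had a median log2 fold change of 0.16, the 138 members of 1000 to 3000 bases had 0.05, and the 88 longer members had -0.00. The same classes of coding genes had medians of 0.17, -0.02 and -0.14. Without replicate 1 the 3 medians of members were 0.21, 0.04 and 0.00. At 25 ng/bee they were 0.05, -0.03 and 0.06. The part of transcript length in the results for single members was not tested beyond the length-corrected values given here.

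Between the doses, 0 of 300 members passed in edgeR (background 0.0%), with 10 members higher at 250 ng/bee (3.33%, background 2.42%) and 7 lower (2.33%, background 2.57%) at an unadjusted p under 0.05. Together these are 5.67% of members and 4.99% of all tested genes. DESeq2 and limma-voom passed no member either. The median log2 fold change was 0.05 over members and -0.02 over all tested genes, and 177 members (59.0%, background 44.1%) had a value above 0. LOC100576929 was higher at 250 than at 25 ng/bee in all libraries, with 0.37 ± 0.12. LOC102655025, named because its groups did not overlap, had 2.53 to 4.94 CPM at 25 ng/bee and 4.99 to 8.37 CPM at 250 ng/bee, with 0.93 ± 0.30. Both have an edgeR adjusted p of 0.934, and these 2 members are 0.667% of the 300 against a background of 0.314%. No member was lower without overlap (background 0.397%). The 3 comparisons share libraries, so their values are not independent of each other.

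The 10 members with the largest standard deviation of log2(CPM + 1) within groups were LOC107964775, LOC100577571, LOC725381, LOC102656359, LOC113219308, LOC102656658, LOC102656849, LOC724982, LOC107964218 and LOC100578134. LOC107964218 was high in 1 control library, replicate 2, with 36.5 CPM, and ranged from 3.37 to 8.26 CPM over the remaining 14 libraries. LOC100577571 had 1.35 to 17.2 CPM in the control, 2.87 to 12.9 CPM at 25 ng/bee and 1.01 to 23.7 CPM at 250 ng/bee. LOC724982, LOC113219308 and LOC102656849 each had a 0 in 1 library, in control replicate 2 for the first and second and in replicate 3 at 25 ng/bee for the third. Of 4500 values over all members and libraries, 5 were 0, each in a different member. These counts are estimates from transcript coverage, so a 0 says that the gene was listed at 0 and not that no read was present.

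**Figure D4:**
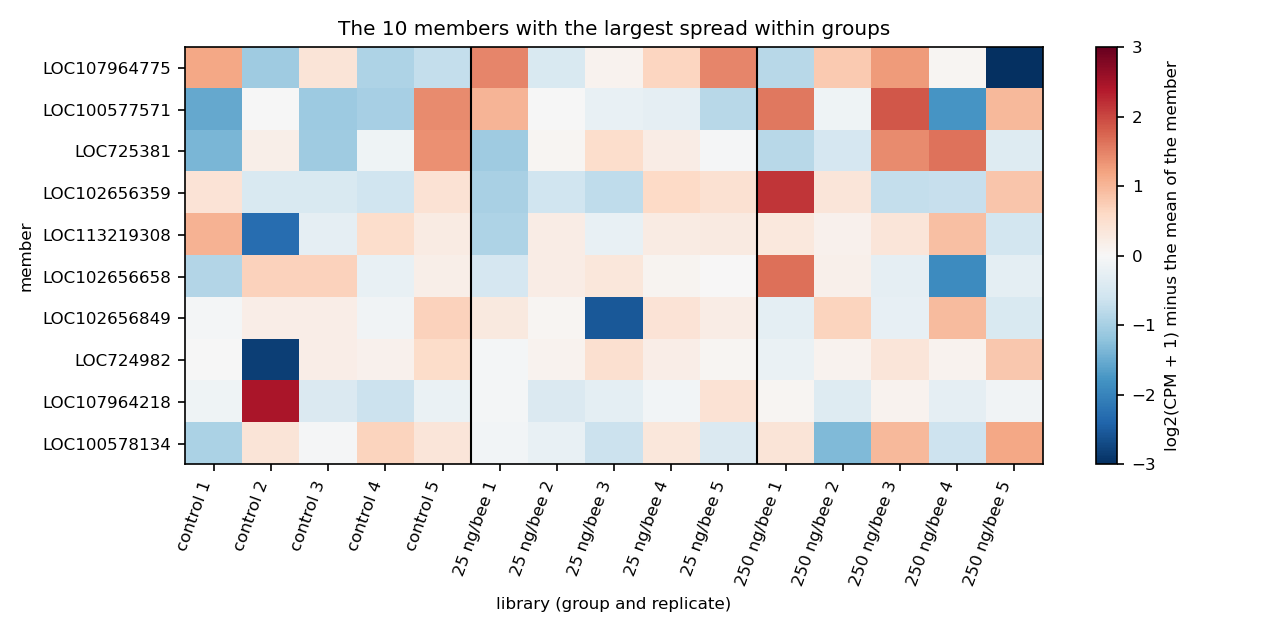
Log2(CPM + 1) of the 10 members with the largest spread within groups, as the difference from the member's mean (colour, limited at 3), for the 15 libraries in columns by group. The darkest cells are LOC107964775 in replicate 5 at 250 ng/bee, LOC107964218 and LOC724982 in control replicate 2, and LOC102656849 in replicate 3 at 25 ng/bee.

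LOC107964775 had the largest spread, and the coding gene on its other strand varied with it. The member (chromosome 7, 3812434 to 3813357, plus strand) lies whole within LOC412162 (3807388 to 3813373, minus strand). LOC107964775 had 22.6, 3.99, 12.8, 4.47 and 5.38 CPM in the control, 27.9, 6.62, 10.3, 15.5 and 28.0 CPM at 25 ng/bee, and 4.91, 17.1, 24.3, 9.82 and 0 CPM at 250 ng/bee. In the same order, LOC412162 had 78.7, 22.9, 60.8, 22.8 and 27.2 CPM, then 87.5, 36.6, 34.6, 61.1 and 93.9 CPM, then 29.6, 47.7, 71.8, 32.6 and 0 CPM. Both were listed at 0 in replicate 5 at 250 ng/bee. In that library the flanking genes LOC724631 and LOC113218892 had 1661 and 215 counts, within their ranges over the libraries of 1127 to 7555 and 161 to 440. The highest counts of the pair in any library were 301 for the member and 1049 for LOC412162.

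Across the 15 libraries, log2(CPM + 1) of LOC107964775 and LOC412162 had a Pearson r of 0.94 and a Spearman rho of 0.97 (permutation p = 1e-05 for each, the smallest that 100000 permutations can give, adjusted 5e-05 over 5 pairs). Without the 2 libraries farthest from the member's median, r was 0.95. LOC102656359, which lies whole within LOC100576446, had 228 CPM in replicate 1 at 250 ng/bee and 25.4 to 91.8 CPM elsewhere, and its partner had 106 CPM there and 14.1 to 50.4 CPM elsewhere. This pair had an r of 0.89 and a rho of 0.86 (permutation p = 2e-05 and 8e-05, adjusted 5e-05 and 0.0002), an r of 0.79 without that library, and an r of 0.87 without the 2 farthest libraries. LOC102656849 and LOC412787 went opposite ways, with an r of -0.63 (permutation p = 0.00918, adjusted 0.0153) and a rho of -0.55 (permutation p = 0.035, adjusted 0.0583). The size of that relation depended on the libraries used, and r was -0.35 without the 2 farthest. Without replicate 5 at 250 ng/bee, r was -0.68 and rho -0.71 (permutation p = 0.0042 and 0.00583, adjusted 0.007 and 0.00972). Without replicate 1 at that dose, r was -0.64 and rho -0.49 (permutation p = 0.0129 and 0.0752, adjusted 0.0215 and 0.125). For LOC725381 with LOC411209 and LOC102656658 with LOC551130, r was 0.26 and 0.09 and neither passed. These 5 pairs, the variable members with an antisense partner, were chosen after their values were seen, and reads shared across strands were not tested as a part of the relation.

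**Figure D5:**
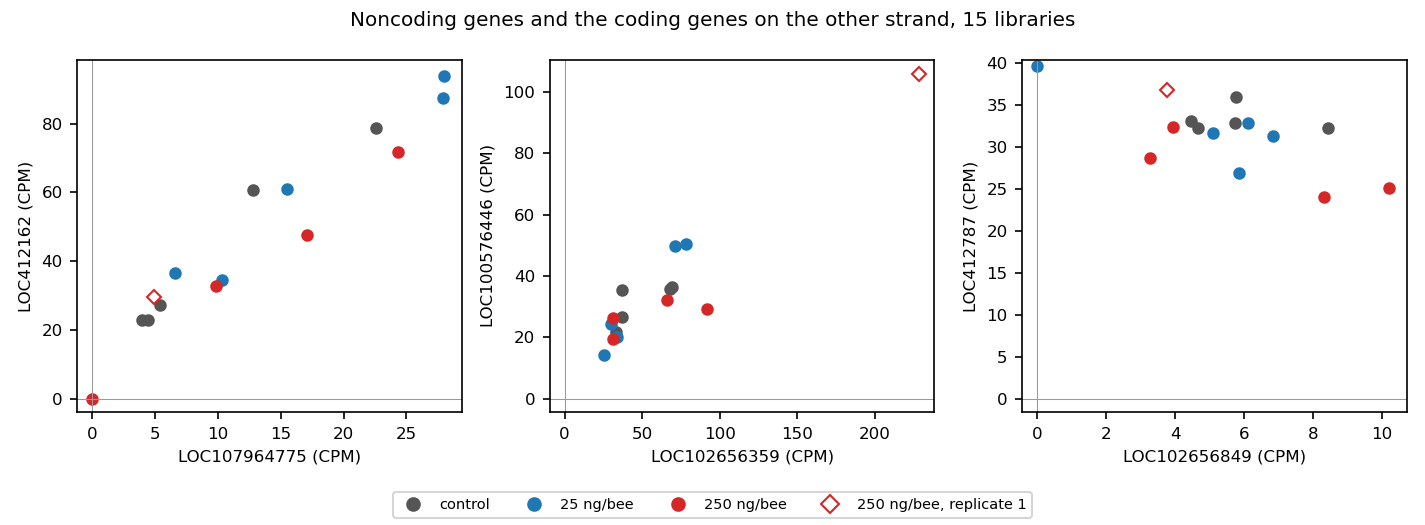
CPM of a member (x axis) and of the coding gene on its other strand (y axis) in the 15 libraries, 1 point per library coloured by group, for LOC107964775, LOC102656359 and LOC102656849. The first pair runs from 0 in both genes to 28.0 and 93.9 CPM, the second is led by replicate 1 at 250 ng/bee at 228 and 106 CPM, and the third falls from 39.6 CPM of LOC412787 where LOC102656849 is at 0.

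Dissected brains can carry RNA of other tissues, so the 10 variable members were set against the mean log2(CPM + 1) of lists of gland, muscle, fat body, retina, immune and cuticle genes. Of 60 member and list pairs, 2 passed by Pearson's r and 0 by Spearman's rho. LOC725381 went with the muscle list, with an r of 0.79 (permutation p = 0.00049, adjusted 0.0207) and a rho of 0.73 (permutation p = 0.0028, adjusted 0.168), and r was 0.64 without the 2 libraries farthest from the list's median. LOC725381 had 48.1, 49.6 and 57.4 CPM in control replicate 5 and in replicates 3 and 4 at 250 ng/bee, and 6.30 to 26.2 CPM elsewhere. The muscle list summed to 626, 459 and 813 CPM in these 3 libraries and to 78.8 to 423 CPM elsewhere. Of the 19 names of that list, 6 were matched and 5 tested. LOC102656658 went with the gland list, with an r of 0.77 (permutation p = 0.00069, adjusted 0.0207), a rho of 0.62 (permutation p = 0.0154, adjusted 0.243) and an r of 0.62 without the 2 farthest libraries. With the immune list this member had an r of 0.35 (permutation p = 0.198, adjusted 0.555) and a rho of 0.59 (permutation p = 0.0243, adjusted 0.243). Its r with that list was 0.64 without the 2 farthest libraries. LOC107964775 had an r of -0.12 with the gland list and 0.28 with the retina list. With group means subtracted, 0 pairs passed and the 2 values of r were 0.80 and 0.78. Without replicate 1 at 250 ng/bee, 4 pairs passed, with LOC113219308 and the gland list at -0.78 and LOC102656849 and the fat body list at 0.79 added. With all libraries these added pairs had an r of -0.66 and 0.74 and did not pass. Without the 2 libraries farthest from the list's median, their r was -0.75 and 0.41.

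Members with many annotated transcripts differed in how their level was divided. Shares of FPKM were taken for the leading transcript, the one with the highest mean level, in the 5 members with the most transcripts. LOC100577216, with 50 transcripts on chromosome 3, had no dominant one: the leading transcript held 13.1% on average, from 5.64% to 28.3% over libraries, and led in 8 of the 15. In LOC100578173, with 23 transcripts on an unplaced sequence, the leading transcript held 31.1% on average, from 24.4% to 39.9%, and led in 13. In LOC102654089 it held 46.1% on average with a range of 12.4% to 79.8%, in LOC102653613 it held 59.4% from 0 to 97.7%, and in LOC102653678 it held 72.8% from 0 to 100%. By group, the leading transcript of LOC100578173 held 33.3% ± 4.28 in the control, 32.0% ± 3.11 at 25 ng/bee and 28.0% ± 2.35 at 250 ng/bee (SD, n = 5). In LOC102653613 these shares were 43.0% ± 31.5, 67.3% ± 24.5 and 67.9% ± 36.6, with overlapping groups. No test was made on these shares, which rest on how the authors' software divided coverage between overlapping transcripts.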

How the data were processed

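Groups and replicate numbers came from the sample titles. Per the submitters' processing notes, DESeq2 1.22.2, StringTie 2.0.2, SAMtools 1.7, HISAT2 2.1.0 and Trimmomatic 0.39 were used, with no role named. No source used here states the genome build or whether reads were counted by strand. The authors deposited a table of estimated counts per gene, which were rounded to whole numbers. The deposited transcript tables give, per the file headers, FPKM and coverage (a signal per base): coverage times length over a read length of 75 gave each deposited count within 1 count, and FPKM gave levels per length and isoform shares. Gene starts and ends of all 300 members match assembly Amel_HAv3.1, from which the gene types come.

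All 9560 genes kept by filterByExpr, including all 300 members, were fitted together in edgeR 4.0.16 (R 4.3.3; quasi-likelihood F test, TMM, group as the only term), with p adjusted by the Benjamini-Hochberg method. DESeq2 1.42.0, limma-voom (limma 3.58.1) with sample weights and a correction for transcript length were alternatives. The procedure was tested on simulated data. Correlations used two-sided permutation tests with 100000 resamples. Precision is limited by depth and by the spread between pools. A member with a mean count of 40.0 has a larger counting error than a more abundant one. The p-values of the fits weigh a difference between groups against the spread between pools. The members, the lists and the tests were chosen with earlier results of these data known. Named members are the 10 most abundant, the 5 with the smallest p on each side at each dose, those past the threshold with or without replicate 1 at 250 ng/bee, the 10 most variable, the 5 with the most transcripts, the 5 most abundant with an antisense partner and those at the limit of the choice, with their neighbours by coordinates. Other names were added after their values were seen.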

Additional observations from a re-analysis of the deposited data

Results flagged for a closer look

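Of 132 groups of 5 libraries over 44 named members, 11 held a library whose gap to its nearest neighbour was above Dixon's critical value of 0.71 times the range of the group. Chance gives about 1 in 20 for genes not chosen by their spread. The named members include the 10 with the largest spread within groups, so the flagged share cannot be set against that rate. In the control these were LOC113218601 with 220 CPM, LOC102655699 with 83.4 CPM and LOC100577571 with 17.2 CPM, all highest in replicate 5, and LOC107964218 with 36.5 CPM, highest in replicate 2. At 25 ng/bee, LOC102654089 with 34.8 CPM and LOC102653678 with 9.53 CPM were highest in replicate 5, LOC102654581 with 42.4 CPM was highest in replicate 3, and LOC102656849 was lowest at 0 in replicate 3. At 250 ng/bee, LOC102655699 with 77.4 CPM was highest in replicate 5. In replicate 1 at that dose, LOC102653678 with 20.9 CPM was highest and LOC113218717 with 13.2 CPM was lowest. The nearest other libraries had 5.33 CPM for LOC107964218, 61.9 CPM for LOC113218717 and 7.56 CPM for LOC102653678 at 250 ng/bee.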

How the results depend on the processing

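At 250 ng/bee the number of members past the threshold was 0 with all libraries in edgeR, 2 in DESeq2, 4 in limma-voom and 3 without replicate 1 at 250 ng/bee, and it ran from 0 to 3 over the libraries left out in turn; the cause was not tested. At 25 ng/bee and between the doses it was 0 in every setting run. With 1 library left out, the median log2 fold change of members ran from -0.00 to 0.07 at 25 ng/bee, from 0.06 to 0.10 at 250 ng/bee and from 0.02 to 0.08 between the doses. LOC113218717 turned from 0.19 to -0.063 with the length correction and to -0.17 with the length correction and a replicate block. Of the members named for their p or for passing the threshold, no other changed sign in the comparison it was named for. The signs of the remaining named members were not followed over the settings. The labels state no pairing of libraries by replicate number. Correlations of same-numbered libraries ran from -0.05 to 0.24, over 0.1 in 4 of 15 pairs. Libraries with different numbers were not compared as a baseline, so these values cannot decide whether the numbers pair the libraries. With the replicate block edgeR again passed 0 members in each comparison. Of the pairs of variable members and marker lists, 0 passed with group means subtracted and 4 without replicate 1 at 250 ng/bee, against 2 with all libraries. All settings for the antisense pairs, added after the data were seen, passed 3 of 5 pairs by Pearson's r. Depth limits the members near the lower end, with a mean count of 39.9 and a larger counting error than more abundant members.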
